A study of Mus musculus with 5 samples.

Results

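The 9 genes described here control apoptosis, the programmed death of cells: Mcl1, Bcl2 and Bcl2l1 (BCL-XL), which block it at mitochondria, Bcl2l11 (BIM), Bbc3 (PUMA) and Pmaip1 (NOXA), which antagonise the blockers, the pore-former Bax, the death receptor protease Casp8, and Mdm2, which directs p53 to degradation. A chromatin immunoprecipitation and sequencing (ChIP-seq) interval was counted for a gene when its centre lay in the gene body or within 50 kb of it, with gene models of GENCODE M1 on mm9. By this rule 23 of the 5590 intervals in the 5 deposited lists belonged to the 9 genes, at 15 separate places. A place is a set of intervals that overlap by at least 1 bp.

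The study mapped IRF4 and IRF8, a pair of related interferon regulatory factors, in B cells of wild type C57BL/6 mice. Naive spleen B cells were cultured with 10 µg/ml lipopolysaccharide (LPS), a bacterial cell wall component, and each factor was immunoprecipitated from cells cultured for 48 h or 72 h. For IRF8 there was in addition a library of germinal centre (GC) B cells, sorted 13 days after immunisation with NP-KLH, a hapten-coupled protein, and frozen directly. There was 1 library per group, and therefore no comparison between groups can be checked on replicates. The sources used here give neither the age nor the number of the mice, and peak lists hold no expression values by which the cell type could be checked.

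In B cells the balance between the blockers and their antagonists decides survival. BCL2 is known to be low in germinal centre B cells and high in naive and memory cells, while MCL1 is needed by germinal centre and plasma cells. IRF4 and IRF8 bind DNA weakly alone. They are recruited with ETS factors such as PU.1 to composite ETS-IRF elements (EICE, GGAANNGAAA), and IRF4 in particular with BATF and JUN proteins to AP-1-IRF elements (AICE).

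The LPS libraries held 3065426 to 4375858 tags (sequenced fragments), of which 0.18% to 0.82% lay in peaks, per the file headers. The lists held 1573 IRF4 peaks at 48 h, 898 IRF4 peaks at 72 h, 234 IRF8 peaks at 48 h, 1059 IRF8 peaks at 72 h and 1826 GC intervals. The height of an LPS peak is its normalised tag count, the tags in the peak scaled to 10000000 tags per library. The GC list gives positions only, so the height of its intervals and the depth of its library are unknown. The header of the IRF8 72 h list names its tags as a second replicate, without saying whether that is a second or a merged library. The GC list was called with another program, so caller and cell type cannot be told apart where it is compared with the LPS lists.

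Of the 9 genes, 7 had an interval in at least 1 list, and Bcl2l1 and Bax had none in any list. Over all 22380 protein-coding genes the same rule gave an interval in some list for 28.1%. The IRF4 48 h list held 10 peaks at 6 of the genes (11.5% of all protein-coding genes had a peak there), and the IRF4 72 h list 3 peaks at 2 genes, Bcl2 and Casp8 (7.61%). The IRF8 72 h list held 5 peaks at 4 genes (8.81%) and the GC list 5 intervals at 4 genes (15.6%). The IRF8 48 h list, the shortest, held none at any of the 9 genes (1.99%). A gene missing from a list had no peak past the caller's threshold. The lowest normalised tag counts in the LPS lists were 18.6 to 23.6, so binding weaker than this was not listed. The caller's tag thresholds were 9 to 11 tags, or 25.1 to 29.4 normalised tags, and some listed peaks fell below them. For IRF8 at 48 h the tag total, 4375858, was the largest of the LPS libraries. Only 0.18% of these tags lay in peaks, the smallest share. Why this list was the shortest was not tested. The genes differ in how much sequence the rule covers. The window was 276 kb for Bcl2, and 5.02% of protein-coding genes had a longer one. It was 104 kb for Mcl1; the median was 122 kb for the 9 genes and 115 kb for all protein-coding genes.

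Of the 15 places, 10 were in 1 list, 2 in 2 lists and 3 in 3 lists. The same counts over all places of the lists were not computed, so these have no background. All 23 intervals lay in single-copy sequence. For 21 of them the nearest protein-coding start site belonged to the gene itself. The other 2, IRF4 peaks beyond the end of Casp8, lay nearer to Trak2. Only 4 intervals were within 1000 bp of a start site of the gene, at Mcl1 and Casp8. The intervals farthest from a gene body were those Casp8 peaks, 36.0 kb beyond its end. The next ones, outside the limit, were an IRF4 48 h peak of 35.3 normalised tags 70.0 kb from Bbc3, near Gpr77, and GC intervals 82.4 kb from Bbc3 and 84.2 kb from Casp8, at the start sites of Zc3h4 and Cflar.

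**Figure D1:**
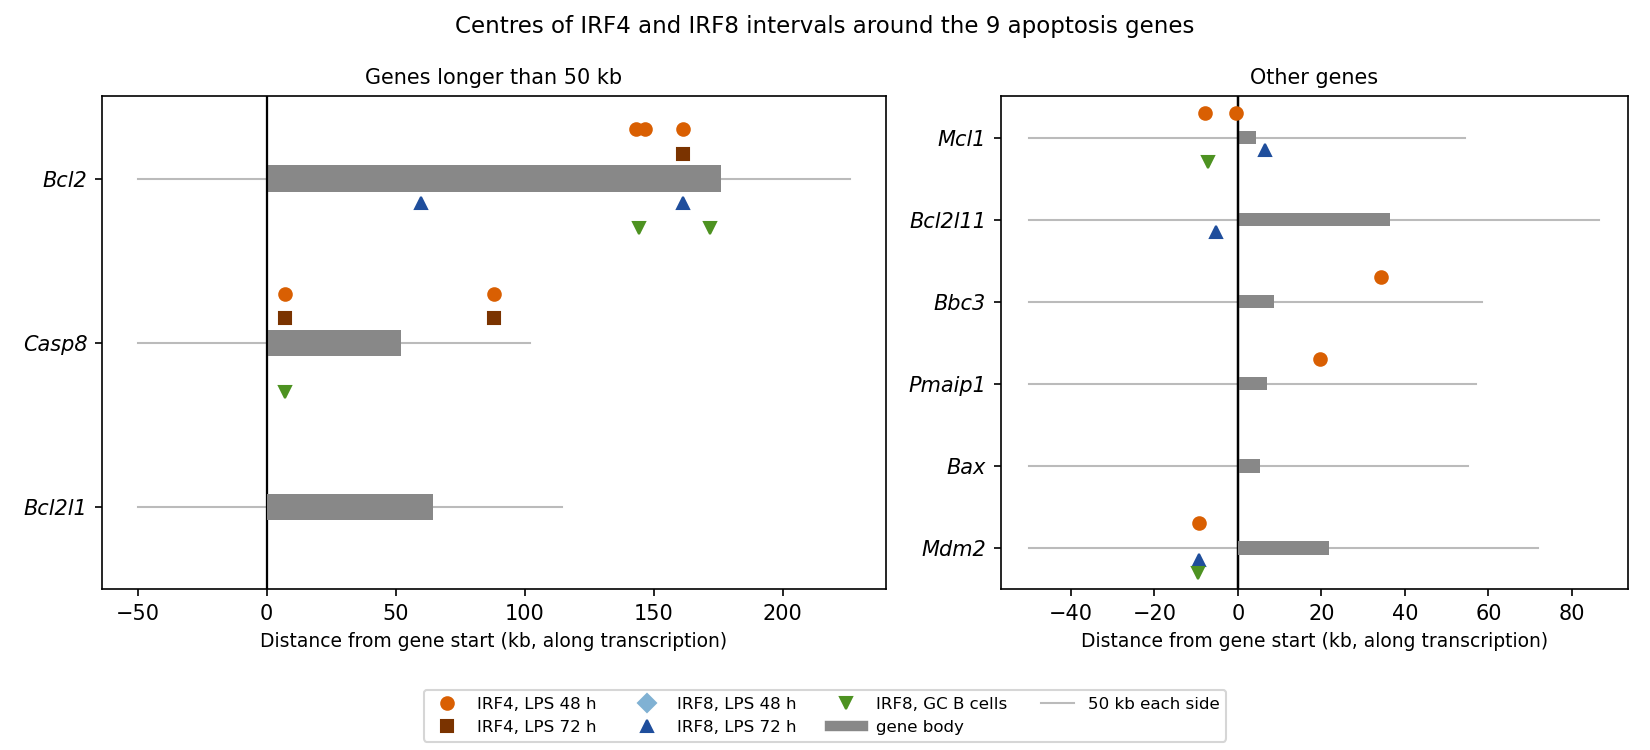
Position of each interval centre (symbols, by list) along the 9 genes, in kb from the gene start in the direction of transcription (x axis), with the gene body as a thick bar and the 50 kb on each side as a thin line. The Bcl2 intervals lie inside the gene, mostly in its far part. Bcl2l1 and Bax carry no symbol, and the IRF8 48 h list has none anywhere.

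The 18 LPS peaks at these genes had 9 to 21 tags each, and 13 of them were at or above the pooled LPS median of 32.6 normalised tags. The normalised tag counts ran from 26.5 to 61.8 in the IRF4 48 h list, with a median of 35.3 against 38.3 for all peaks of the list. In the IRF4 72 h list they ran from 26.6 to 47.8 with a median of 34.5 against 29.2, and in the IRF8 72 h list from 29.4 to 42.4 with a median of 32.6, which is also that of the whole list. With so few tags the 95% Poisson intervals are wide, and those of the 18 peaks all overlap one another. These intervals cover counting error only, since tags lacking molecular identifiers cannot be taken as independent molecules.

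**Figure D2:**
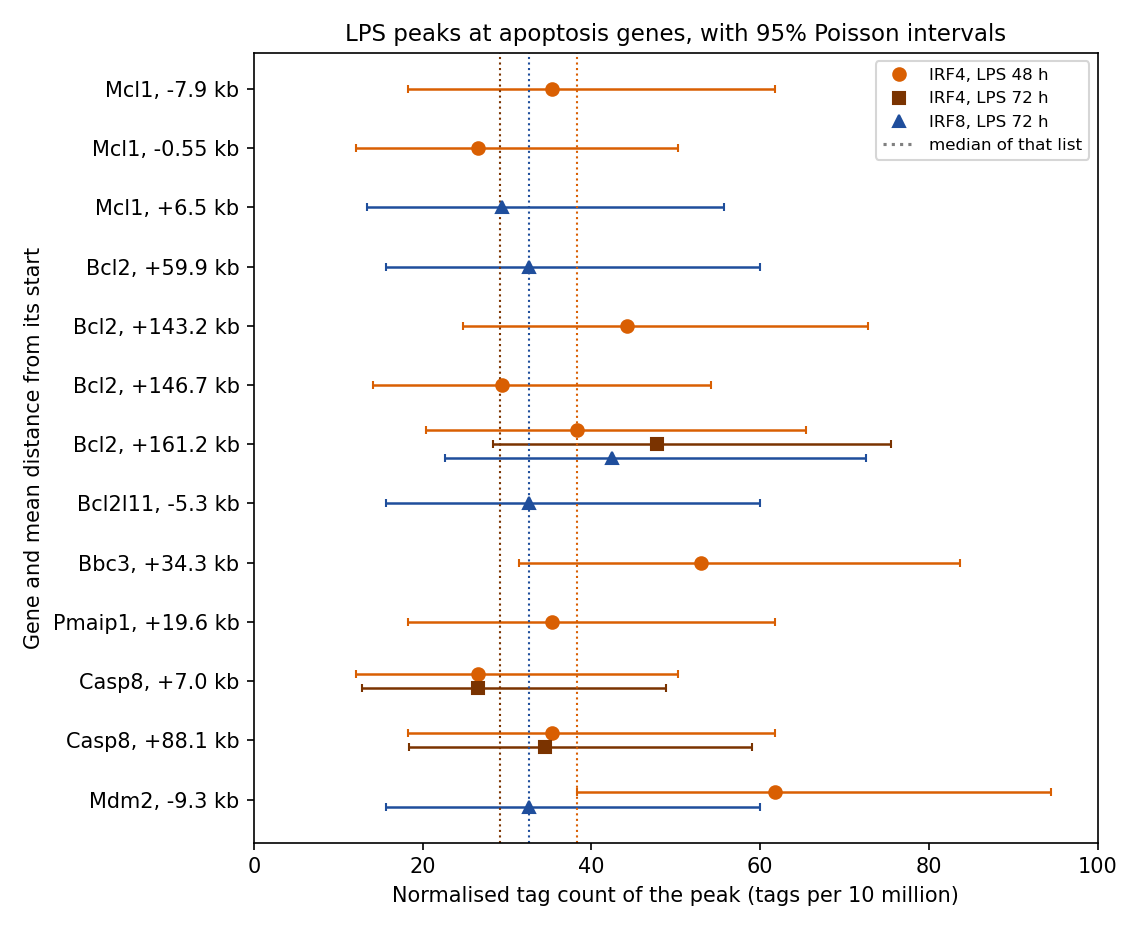
Normalised tag count (x axis, tags per library of 10000000) of each LPS peak, by gene and distance from the gene start (y axis). Bars are 95% Poisson intervals and dotted lines the medians of the 3 lists. The IRF4 48 h peak upstream of Mdm2 is the highest at 61.8, and its interval starts at 38.3.

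The sequence within 100 bp of each centre was searched, on either strand, for 6 DNA words: EICE (GGAANNGAAA); AICE1 (GAAATGACTCA or GAAATGAGTCA), which contains the AP-1 site; AICE2, another AP-1-IRF element, with the IRF site in the opposite direction and a gap of 4 bases; the core of the interferon-stimulated element (ISRE, GAAANNGAAA); a PU.1-type ETS site (GAGGAAGT); and the AP-1 site (TGACTCA or TGAGTCA). A match is a description of the sequence and does not show which protein was bound. In all, 11 of the 18 LPS peaks, at 8 of 13 places, held at least 1 of the words. The share of all LPS peaks that hold any of the words was not computed, so this count has no background. The EICE lay under 4 LPS peaks at 2 places. AP-1 sites lay under 5 peaks at 5 places and the PU.1-type site under 4 peaks at 3 places. Neither the ISRE nor AICE2 was found within 100 bp of any of the LPS centres. The 5 GC intervals held none of the words within 100 bp of the centre.

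By list, 3 of the 10 IRF4 48 h peaks had an AP-1 site (28.7% of all peaks of that list), 2 an EICE (14.6%), 3 a PU.1-type site (7.54%) and 1 AICE1 (3.64%). None had AICE2 (2.11%) or the ISRE (4.54%). Of the 3 IRF4 72 h peaks 1 had an EICE (25.6%). None had an AP-1 site (18.5%), a PU.1-type site (9.14%), the ISRE (7.22%), AICE1 (2.03%) or AICE2 (2.03%). Of the 5 IRF8 72 h peaks 2 had an AP-1 site (8.02%), 1 an EICE (22.1%) and 1 a PU.1-type site (6.97%), and none had the ISRE (12.1%), AICE2 (1.62%) or AICE1 (0.478%). In the whole GC list the ISRE lay near 13.5% of centres, the EICE near 7.34%, AP-1 near 5.81%, the PU.1-type site near 5.04%, AICE2 near 0.767% and AICE1 near 0.219%. With so few peaks these counts were not tested against the lists.

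Mcl1 encodes a short-lived blocker of apoptosis. It had 4 intervals at 3 places, all close to the short gene (chromosome 3, 95462643 to 95467099, plus strand). The first place was 7.88 kb upstream (95454514 to 95455014), with 35.3 normalised tags for IRF4 at 48 h (95% interval 18.3 to 61.7). A GC interval (95454803 to 95456011) overlapped it by 212 bp, with its centre 643 bp away. The second place was in the promoter region, 0.55 kb upstream of the start (95461843 to 95462343). It was among the weakest IRF4 48 h peaks with 26.5 normalised tags (12.1 to 50.3), and 92.2% of the list was higher. The third place, 2.03 kb beyond the end of the gene (95468879 to 95469379), was found for IRF8 at 72 h alone, with 29.4 normalised tags (13.4 to 55.7). Thus the IRF4 peaks of 48 h and the IRF8 peak of 72 h lay at different places around Mcl1. No IRF4 peak was listed there at 72 h and no IRF8 peak at 48 h, so factor and time cannot be told apart. The difference between the lists was not tested, since no tag count is given for a place outside a list.

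The promoter place of Mcl1 held an EICE 17.5 bp before its centre. The upstream and the downstream Mcl1 place both held an AP-1 site. In the upstream place it lay 55 bp before the centre, with a PU.1-type site on the minus strand nearer to it. In the downstream place it lay 46 bp after the centre. Over the whole downstream peak an ISRE was also present. The upstream and downstream windows are shown for their AP-1 sites. Each holds 201 bases of the plus strand of mm9 around the highest LPS peak's centre, with the words in capitals.
Mcl1 upstream, chr3:95454664-95454864: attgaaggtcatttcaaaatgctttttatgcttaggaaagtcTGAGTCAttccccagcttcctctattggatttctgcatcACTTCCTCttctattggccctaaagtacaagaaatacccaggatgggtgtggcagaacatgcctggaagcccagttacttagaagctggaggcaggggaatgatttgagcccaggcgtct
Mcl1 downstream, chr3:95469029-95469229: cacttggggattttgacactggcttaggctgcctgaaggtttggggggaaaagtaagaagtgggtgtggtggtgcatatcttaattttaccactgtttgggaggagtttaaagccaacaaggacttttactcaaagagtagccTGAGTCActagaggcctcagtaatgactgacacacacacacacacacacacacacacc

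Bcl2, the founding blocker of apoptosis, had the most intervals, 8 at 6 places, all inside the gene (chromosome 1, 108434755 to 108610851, minus strand). It was the 1 gene of the 9 with intervals in 4 lists. Of its 6 places, 5 with 7 intervals lay within 28.9 kb in the far part of the gene, 143 to 172 kb from its start. This stretch also carries D630008O14Rik, an antisense noncoding gene on the plus strand. The remaining place, an IRF8 72 h peak of 32.6 normalised tags (15.6 to 60.0), lay 59.9 kb from the start (108550695 to 108551195). It held an EICE and an ISRE over the whole peak, but outside the 100 bp window.

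The place 161 kb from the Bcl2 start was found in 3 lists, more than any other Bcl2 place, and lay in the long intron. IRF4 had 38.3 normalised tags there at 48 h (20.4 to 65.4, 108449387 to 108449887) and 47.8 at 72 h (28.3 to 75.5, 108449396 to 108449896). IRF8 had 42.4 at 72 h (22.6 to 72.5, 108449374 to 108449874). The 3 centres were within 22 bp of each other, and the same EICE lay 3.5 to 16.5 bp from each of them. The GC list had no interval there. The window of the IRF4 72 h peak is shown for this element, in capitals.
Bcl2 intron, chr1:108449546-108449746: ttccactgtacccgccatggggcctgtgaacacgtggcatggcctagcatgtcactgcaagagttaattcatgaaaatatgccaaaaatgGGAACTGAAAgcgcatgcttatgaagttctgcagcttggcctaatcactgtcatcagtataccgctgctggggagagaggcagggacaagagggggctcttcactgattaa

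Tags at this place could be compared between libraries. The IRF4 ratio of 72 h over 48 h was 1.25 (95% interval 0.579 to 2.77), and the exact binomial test, two-sided, gave an adjusted p of 0.939 over 536 places found in both lists. At 72 h the ratio of IRF4 over IRF8 was 1.13 (0.522 to 2.50), with an adjusted p of 1 over 258 places in the exact binomial test. Such tests compare 2 libraries, not conditions. Over all places 2.61% and 0.388% passed in these comparisons, in either direction. The median ratio of 72 h over 48 h at 489 single-copy places was 0.752 (quartiles 0.584 and 0.945), and at 209 single-copy places the median of IRF4 over IRF8 was 0.977. With the first median set to 1, the Bcl2 ratio of 72 h over 48 h was 1.66.

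Between 143 and 147 kb from the Bcl2 start, 3 places lay within 3.55 kb of each other without overlap. IRF4 peaks of 48 h stood on both sides, with 44.2 normalised tags (24.7 to 72.8, 108467446 to 108467946) and 29.4 (14.1 to 54.1, 108463894 to 108464394). A GC interval of IRF8 lay between them (108466164 to 108467027). The other GC interval, 172 kb from the start (108438494 to 108439170), lay wholly in the 3′ UTR of Bcl2, which there overlaps an exon of D630008O14Rik on the other strand. None of these 4 intervals held any of the words within 100 bp of the centre. The lists of IRF8 in GC B cells and of IRF8 in LPS culture had no shared place in Bcl2. How often these lists share a place over all intervals was not computed, so this has no background.

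Bcl2l1 encodes BCL-XL, a further blocker that supports the survival of immature and activated B cells. Its window of 164 kb on chromosome 2 (gene at 152593052 to 152657464, minus strand) is longer than that of Mcl1 but contained no interval of any list. The same was true of Bax (chromosome 7, 52717065 to 52722268, minus strand), the effector that permeabilises the mitochondrial outer membrane.

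Each of the 3 BH3-only antagonists had a single place in a single list. Pmaip1, whose product NOXA neutralises MCL1, had an IRF4 48 h peak 12.6 kb beyond its end (chromosome 18, 66637594 to 66638094), with 35.3 normalised tags (18.3 to 61.7). An AP-1 site lay 15 bp from its centre and a PU.1-type site 56.5 bp from it.

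Bcl2l11, whose product BIM removes autoreactive and excess lymphocytes, had an IRF8 72 h peak 5.34 kb upstream (chromosome 2, 127946180 to 127946680), in an intron of the neighbouring gene Acoxl. It carried 32.6 normalised tags (15.6 to 60.0) and held an AP-1 site 46 bp from the centre. Bbc3, whose product PUMA is induced by p53, had an IRF4 48 h peak 25.7 kb beyond its end (chromosome 7, 16929027 to 16929527), in an intron of Sae1. It carried 53 normalised tags (31.4 to 83.7), with 19.6% of its list higher, and stood 24.4-fold above the surrounding 10000 bp by the authors' caller.

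The Bbc3 peak held the only AICE1 among these genes, and held it in 2 copies. The same word, GAAATGACTCA, began at 16929208 and again 50 bp farther on, at 64 and 14 bp before the centre. Among all 1564 IRF4 48 h windows, 3 (0.192%) held 2 or more AICE1 words. The Bbc3 window is among these 3 and the word was chosen from it, so the share is no test. The Bbc3 and Bcl2l11 windows are shown for the contrast between a composite and a bare AP-1 site, in capitals.
Bbc3 downstream, chr7:16929177-16929377: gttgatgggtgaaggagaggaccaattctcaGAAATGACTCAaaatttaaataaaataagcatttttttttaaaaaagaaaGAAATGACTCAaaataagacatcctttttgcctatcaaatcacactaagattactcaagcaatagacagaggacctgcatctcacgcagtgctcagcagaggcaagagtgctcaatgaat
Bcl2l11 upstream, chr2:127946330-127946530: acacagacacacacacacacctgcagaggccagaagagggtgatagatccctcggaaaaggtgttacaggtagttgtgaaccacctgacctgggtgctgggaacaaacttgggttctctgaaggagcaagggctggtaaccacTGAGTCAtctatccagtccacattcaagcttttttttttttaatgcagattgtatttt

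Casp8, the protease that starts apoptosis at death receptors, had 5 intervals at 2 places and no IRF8 peak in LPS culture. The first place surrounds a start site inside the gene (chromosome 1, gene at 58852218 to 58904347, plus strand). Its 48 h peak centre lay 7.04 kb from the outermost start of the gene. The peak centres lay 0.09 kb from the internal start at 48 h and 0.074 kb from it at 72 h. IRF4 had 26.5 normalised tags there at 48 h (12.1 to 50.3, 58859006 to 58859506) and 26.6 at 72 h (12.7 to 48.8, 58859022 to 58859522). These were low peaks, with 92.2% of the 48 h list and 64.4% of the 72 h list higher. A GC interval of 1272 bp (58858862 to 58860133) covered both peaks whole. The second place, 36.0 kb beyond the gene end, had 35.3 normalised IRF4 tags at 48 h (18.3 to 61.7, 58940069 to 58940569) and 34.5 at 72 h (18.4 to 59.0, 58940064 to 58940564). Its nearest start site is that of Trak2, 23.7 kb away. Neither place held any of the words within 100 bp.

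IRF4 tags at both Casp8 places were nearly equal at the 2 times. The ratio of 72 h over 48 h was 1.002 at the internal start (0.366 to 2.79) and 0.977 at the downstream place (0.411 to 2.34), each with an adjusted p of 1 in the exact binomial test. The intervals are wide: at the internal start they allow a fall to 0.366 of the 48 h value as well as a rise to 2.79 times it.

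**Figure D3:**
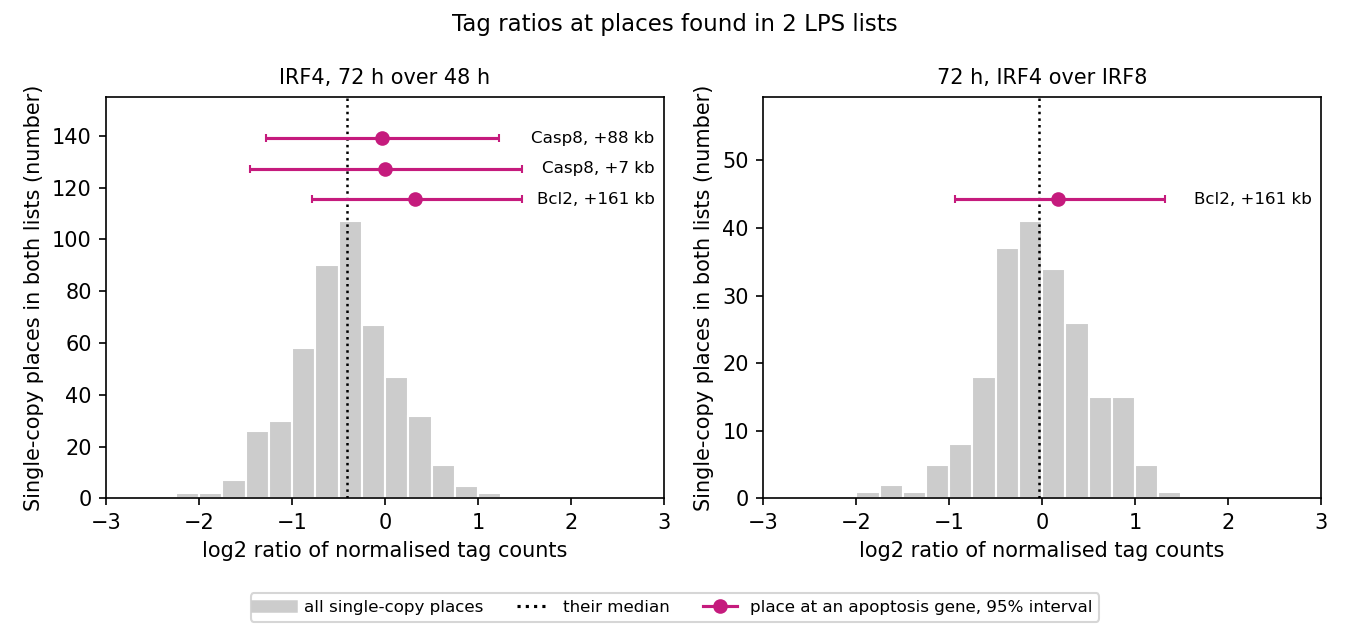
log2 ratio of normalised tag counts (x axis) at all single-copy places found in both lists (grey, number of places on the y axis; dotted line, median) and at the places of Bcl2 and Casp8 (points with 95% intervals), for IRF4 at 72 h over 48 h and for IRF4 over IRF8 at 72 h. The intervals of all 3 points on the left include the median ratio of 0.752.

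Mdm2, which encodes the ubiquitin ligase that holds p53 in check, had 1 place in 3 lists, 9.26 to 9.47 kb upstream of the gene (chromosome 10, 117125944 to 117147814, minus strand). IRF4 had 61.8 normalised tags there at 48 h (38.3 to 94.5, 117156820 to 117157320), the highest value at any of the 9 genes, with 12.1% of its list higher. The peak stood 22.2-fold above the surrounding region by the authors' caller. IRF8 had 32.6 at 72 h (15.6 to 60.0, 117156863 to 117157363), and the centres were 43 bp apart. The GC interval (117156698 to 117157879) covered both peaks whole. Factor and time both differ between the LPS peaks, so their tag counts are given side by side without a test. This was the only place of the 9 genes where IRF8 was found both in LPS culture and in GC B cells.

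The Mdm2 place held no EICE or AP-1 site. It held the PU.1-type site 2 times, 54 bp apart, with 1 copy 0.5 bp from the IRF4 centre and the other 10.5 bp from the IRF8 centre. Of all windows, 0.384% of IRF4 48 h peaks and 0.287% of IRF8 72 h peaks held 2 or more copies. The Mdm2 windows are among these and the word was chosen from them, so the shares are no test. The window of the IRF4 peak is shown with both copies in capitals.
Mdm2 upstream, chr10:117156970-117157170: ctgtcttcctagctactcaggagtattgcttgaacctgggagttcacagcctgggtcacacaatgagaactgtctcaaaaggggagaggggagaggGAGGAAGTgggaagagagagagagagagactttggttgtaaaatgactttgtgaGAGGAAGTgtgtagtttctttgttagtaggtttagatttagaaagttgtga

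The 5 GC intervals fell at Mcl1, Bcl2, Casp8 and Mdm2, and 3 of them overlapped an LPS peak: with IRF4 at Mcl1 and Casp8, and with both factors at Mdm2. The share of all GC intervals that overlap an LPS peak was not computed, so this count has no background. Over the whole intervals 1 of the 5, that of Mdm2, held any of the 6 words, the PU.1-type site (16.2% of all GC intervals). None held an ISRE, which lay in 37.4% of all GC intervals over their whole length. Both factors shared a place in LPS culture at Bcl2, where both were listed at 72 h, and at Mdm2, with IRF4 at 48 h and IRF8 at 72 h. The share of all LPS places with both factors was not computed. The combination of lists seen at Bcl2 was found at 0.853% of protein-coding genes and that of Mcl1 and Mdm2 (IRF4 48 h, IRF8 72 h and GC) at 0.487%. That of Casp8 was found at 0.992%, that of Bbc3 and Pmaip1 at 3.90% and that of Bcl2l11 at 3.26%. Each combination was read from the gene itself, so its share is no test. Intervals in at least 2 lists were seen for 10.3% of all protein-coding genes.

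A further 41 genes of the apoptosis pathway were counted by the same rule. Of these, 16 had an interval in some list (28.1% of all protein-coding genes). The IRF4 lists held 7 at 48 h (11.5% of all protein-coding genes) and 6 at 72 h (7.61%). The IRF8 72 h list held 5 (8.81%) and the GC list 10 (15.6%). The IRF8 48 h list again held none (1.99%). By role, 4 of 13 other BCL-2 family genes, 3 of 8 in the death receptor arm, 5 of 8 apoptosome and executioner genes, 2 of 5 inhibitors of apoptosis and 2 of 7 in the p53 arm had an interval.

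In at least 2 lists there were 10 of these genes (10.3% of all protein-coding genes). Apaf1, the scaffold of the apoptosome, had the highest peak among them, 53.6 kb from its start. It carried 73.6 normalised IRF4 tags at 48 h, with an AP-1 site near the centre, and 50.5 at 72 h, with AICE1 (which contains the AP-1 site) near the centre. The peaks overlap (90491715 to 90492215 at 48 h, 90491678 to 90492178 at 72 h). The AICE1 thus also lies within the 48 h peak, but not wholly within 100 bp of its centre. Bak1, the partner of Bax, had an IRF8 place in the 72 h list (26.1) and the GC list, nearer to the start of Ggnbp1. An EICE lay within 100 bp of the centre of the 72 h peak, but not of the GC interval. A further GC interval lay 0.702 kb from a start site of Bak1 itself. Cflar, the inhibitor of CASP8, lies beside Casp8 and shares its internal place. It also had a GC interval 0.317 kb from its own start and an IRF4 48 h peak with an EICE (35.3), nearer to Als2cr12. Trp53inp1, a gene induced by p53, had an IRF4 72 h peak with an ISRE (26.6) 9.24 kb upstream and a GC interval over it. For Bid, Bmf, Diablo, Birc5 and Aen all intervals were nearer to the start sites of other genes (Mical3, Srp14 and Bub1b, Il31, Tk1 and Isg20). The IRF8 72 h peak of Diablo was in sequence with a median of 4 copies in the genome.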

How the data were processed

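ChIP-seq for IRF4 and IRF8 was given as 5 lists, 1 per group. The authors made the 4 LPS lists with findPeaks of HOMER, per the file headers (peaks of 500 bp, at most 1 tag per position, false discovery rate 0.001, at least 4-fold over the surrounding 10000 bp with a Poisson p-value of 1e-04). Per the file headers, the deposited signal of a peak is a tag count normalised to a library of 10000000 tags. The deposited focus ratio (a fraction), findPeaks score, fold over the local region (a ratio) and p-value are the authors' caller's own values; of these only the fold is printed. The GC list holds deposited positions, called with MACS per the series' design text. The build was mm9, and BWA and Bowtie2 are named in the submitters' processing notes without a role.

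Genes came from GENCODE M1 (NCBIM37, that is mm9). Distances run from the interval centre to the outermost gene start unless a start site is named. When the scaling was reversed, 100% of LPS peaks had a whole number of tags (tolerance 0.05). These gave exact Poisson intervals (95%) and exact binomial tests, two-sided, between libraries, with Benjamini-Hochberg adjustment over all places in both lists (threshold 0.05), checked on simulated data. Single-copy means that the median 24-base word within 100 bp of the centre occurs 1 time in the genome. Other pathway genes were named when found in at least 2 lists, except 1 that is not reported here; a sequence window is not reported either. The 9 genes and all lists were chosen with earlier results of these data known. Work was done with Python 3.11.15, SciPy 1.17.1, pandas 2.3.3 and pysam 0.24.0. The alternatives were other distances, tag minimums, windows, overlaps and scalings.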

Additional observations from a re-analysis of the deposited data

How the results depend on the processing

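Of 79 recomputed values, 76 kept their direction and their side of the threshold or stayed within 1.5 times. Over whole intervals, the ISRE was found under 2 LPS peaks (Mcl1 downstream and the Bcl2 place 59.9 kb from the start) instead of 0, and the PU.1-type site under 1 GC interval instead of 0; both follow from the longer sequence searched. With the median ratio over single-copy places set to 1, the IRF4 ratio of 72 h over 48 h at the downstream Casp8 place turned from 0.977 to 1.30, without a call on either scaling (exact binomial test, adjusted p = 1). Within 20 kb of the gene body 6 members instead of 7 had an interval in some list, and within 100 kb 7. Without the IRF8 72 h list 6 members remained, since Bcl2l11 has its only peak there, and without the GC list 7; these were added after the data were seen. No paired analysis was possible because each group holds 1 library. Depth limits all tag comparisons: no member peak had more than 21 tags.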

Other observations

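The internal start of Casp8 lay under low IRF4 peaks at both times and a GC interval of IRF8, but matched none of the 6 words. Its sequence, read after the values were seen, holds 2 GAAA half-sites with 1 base between them (GAAANGAAA), where the ISRE core has 2. The word lies 15 bp before the IRF4 centre of 48 h and 31 bp before that of 72 h, and inside the GC interval but outside the 100 bp around its centre. Among the other intervals of the 9 genes the word was found 1 time within 100 bp of the centre, 72 bp from that of the GC interval between the IRF4 peaks of Bcl2. It is found within 100 bp of the centre in 4.48% of IRF4 48 h, 5.64% of IRF4 72 h, 6.30% of IRF8 72 h and 5.42% of GC windows, and whether either factor uses it was not tested. The 174 bases of mm9 before the annotated exon are shown with the word in capitals.
Casp8 internal start, chr1:58859172-58859345: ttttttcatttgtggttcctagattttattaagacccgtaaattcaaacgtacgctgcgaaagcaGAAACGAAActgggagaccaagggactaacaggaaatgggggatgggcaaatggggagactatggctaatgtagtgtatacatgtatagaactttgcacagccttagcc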
